A study of Arabidopsis thaliana with 12 samples.

Results

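The genes described here are cytochrome P450 genes of Arabidopsis thaliana that the probe set annotation used here named singly. They were measured on an Affymetrix array in rosettes that were wounded or left intact, in the light or in the dark. They were chosen by name: a gene was included when a probe set, the group of short probes that reads 1 transcript, was annotated to that gene alone and its symbol was CYP followed by digits, letters and digits. This gave 22 genes with 1 probe set each, of 13356 genes that had such a probe set. The RefSeq annotation of the assembly TAIR10.1 lists 225 genes with a symbol of this form, and the others were not analysed here. The probe set annotation named no gene for 8730 of 22746 probe sets, so the 22 do not show which P450 genes the array carries. Of the 22 genes, 18 belong to the CYP71B family, and the other 4 are CYP51G2, CYP78A9, CYP79A2 and CYP84A4. The rule itself used no expression value, but the genes were chosen with earlier results of these data known.

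The study asked how the light environment bears on the transcript response to wounding, with 12 arrays in 4 groups of 3. Wounded rosettes in the light stood for 30 min in light of 250 µmol photons per square metre and second, were crushed with a haemostat and were cut 60 min later. Intact rosettes in the light had the same light and timing without the crushing. Wounded rosettes in the dark stood in darkness for 30 min, were crushed under a safelight and stayed dark for the next 60 min. Intact rosettes in the dark had the same dark period without the crushing. The accession or genotype of the plants is not given in the sources used here. All plants were grown in days of 10 h light and 14 h dark and treated at 22 °C, and each array carried 1 RNA extract pooled from 15 to 17 plants. Each of 3 independent experiments, numbered 1 to 3 in the labels, supplied 1 array to every group.

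Cytochrome P450 enzymes are haem proteins that insert oxygen into small molecules, with electrons passed on by a partner reductase in the membrane of the endoplasmic reticulum. In plants they form one of the largest gene families and make or break down hormones, pigments, lignin precursors and defence compounds. The CYP71 clan has grown by tandem duplication, so that near-identical copies often lie side by side. The best known CYP71B gene of Arabidopsis, CYP71B15 or PAD3, completes the synthesis of the defence compound camalexin; it was not analysed here.

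Values are log2 signals, on which a difference of 1 is a 2-fold change, and array medians lay between 5.40 and 5.60. The transcripts of RCA and PSAE-1, a Rubisco activase and a photosystem subunit of green leaves, read 15.09 to 15.25 and 14.57 to 14.99 on the 12 arrays. The root hair gene EXPA7 read 1.85 to 1.88, while PYK10, a beta-glucosidase best known from roots, read 6.70 to 9.39. The guard cell gene FAMA read 4.96 to 5.81, so that 5 of 30 marker genes were measured, none of which was called in any comparison. The control probe set for 25S ribosomal RNA averaged 7.36 ± 1.06 in wounded rosettes in the light and 7.27 ± 0.33 in intact rosettes in the light. It averaged 7.57 ± 0.77 in wounded rosettes in the dark and 9.62 ± 0.95 in intact rosettes in the dark (SD, n = 3 each), so the last group stood apart on this measure of RNA make-up. In whole rosettes, fewer cells of a type and less RNA per cell cannot be told apart.

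Of the 22 P450 genes, 12 gave a clear signal. They read at least 4 on the log2 scale on all 12 arrays, which is 54.5% of them, against 54.1% of all 22746 probe sets tested. These 12 are CYP84A4 and 11 CYP71B genes: CYP71B5, CYP71B6, CYP71B22, CYP71B23, CYP71B24, CYP71B26, CYP71B28, CYP71B29, CYP71B34, CYP71B35 and CYP71B36. CYP78A9 reached 4 on 2 arrays. The other 9 stayed below 4 on every array, between 2.08 and 3.58, and were CYP51G2, CYP79A2, CYP71B16, CYP71B21, CYP71B25, CYP71B27, CYP71B31, CYP71B37 and CYP71B38. Among these 9 the largest change in the 4 comparisons of wounding and light was 0.32 in size, in CYP71B37, and none of them was called. Apart from CYP71B37, the arrays of these dim genes still did not overlap between wounded and intact rosettes in the light. All were higher in wounded rosettes, by only 0.03 to 0.08. Groups that do not overlap, here and below, are therefore weak evidence, and the share over all probe sets was not counted.

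**Figure D1:**
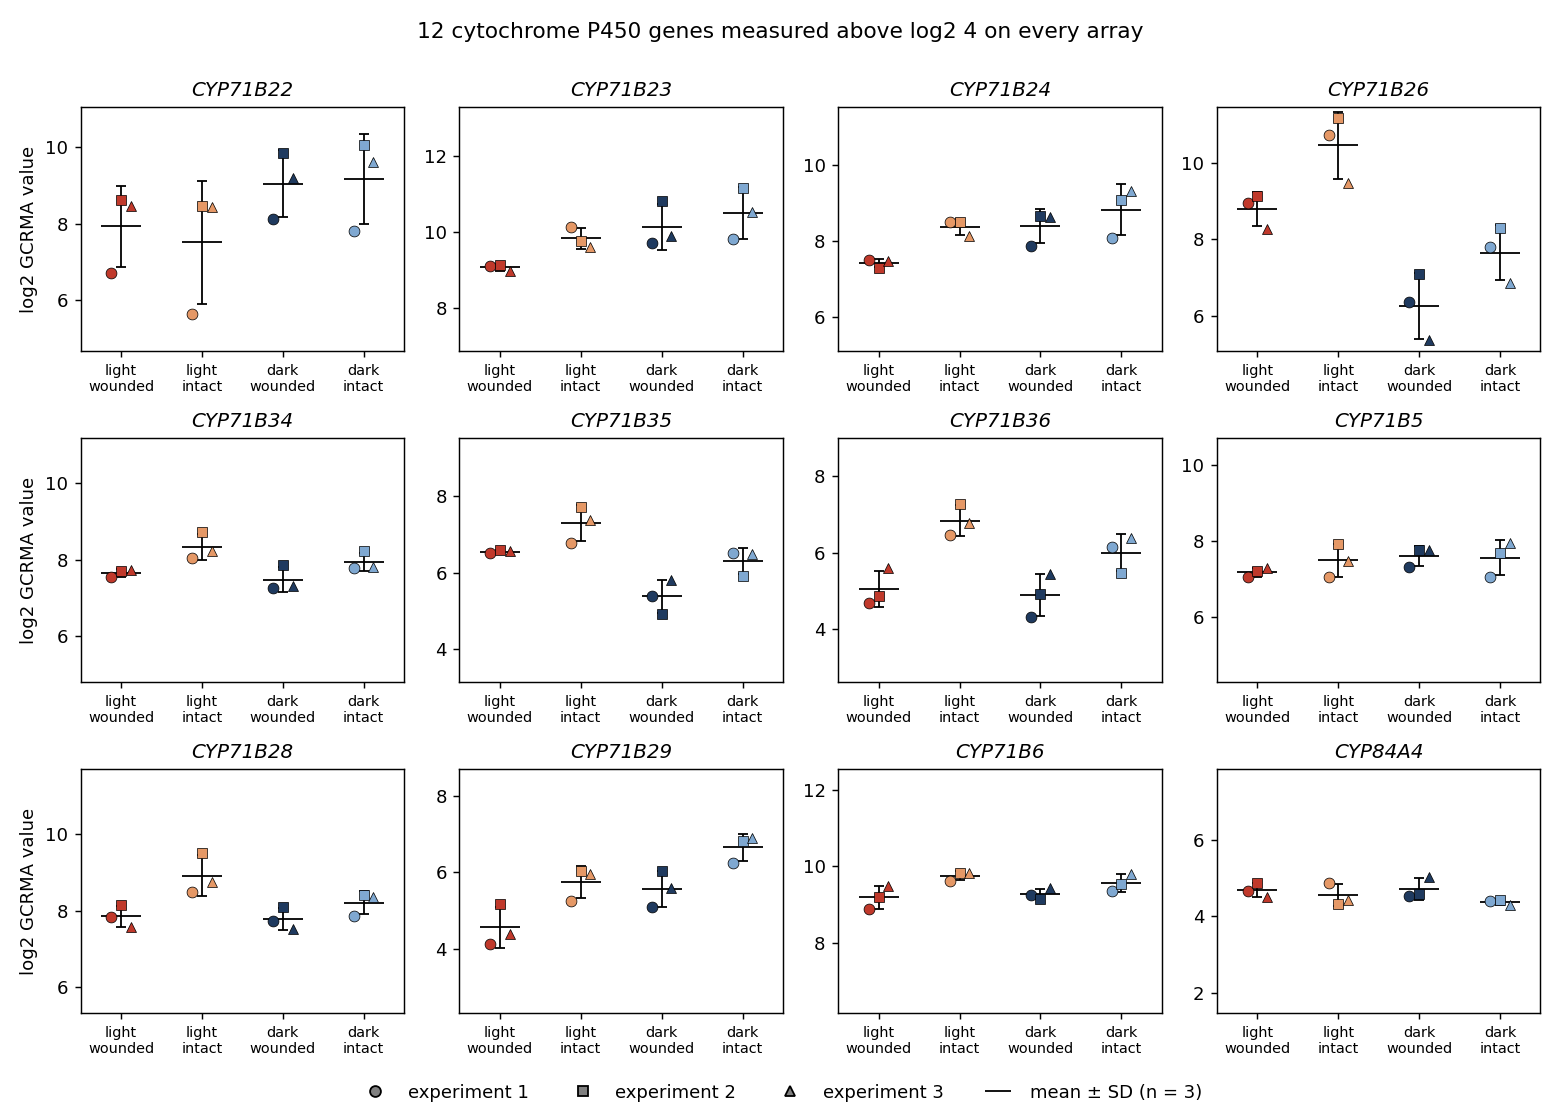
Log2 signal of the 12 clearly measured P450 genes on each array, with 1 panel per gene and all panels drawn over the same span of log2 units. Points are arrays, marked by experiment, and lines are means with SD (n = 3); CYP71B26 stands higher in the light groups, and most panels stand lower in wounded than in intact rosettes.

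In the light, wounding lowered CYP71B36, and most of the other measured P450 genes also read lower in wounded rosettes. Of the 12 clearly measured genes, 10 had a negative difference and 2, CYP71B22 and CYP84A4, a positive one. The median difference of these 12 was -0.76, against -0.15 for all 12307 probe sets as bright on all arrays, of which 70.4% were negative. limma, the linear model with moderated errors fitted to all 22746 probe sets, called 1 P450 gene lower and 0 higher at an adjusted p under 0.05 (22 genes tested). It called 3.64% of all probe sets lower and 4.31% higher. At an unadjusted p under 0.05 the P450 counts were 9 lower and 0 higher. When the experiment number was added to the model as a block, which compares arrays within each experiment, 7 P450 genes were called lower, or 31.8%, and 0 higher. The block called 8.71% of all probe sets lower and 6.07% higher. The 7 were CYP71B6, CYP71B26, CYP71B28, CYP71B29, CYP71B34, CYP71B36 and CYP78A9.

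CYP71B36 (AT3G26320), a gene of the family's stretch on chromosome 3, read 4.69, 4.86 and 5.59 in wounded rosettes in the light, against 6.46, 7.28 and 6.78 in intact rosettes in the light. Every wounded array lay below every intact one, and the drop appeared in each experiment, at -1.77, -2.42 and -1.19. The change was -1.79 ± 0.37 (SE; 95% interval -2.64 to -0.95), a 3.46-fold lower level in wounded rosettes, with a limma adjusted p of 0.0194, or 0.0102 with the block. Ordered by log2 change, the gene had rank 61 of 22746 from the lowest. Here and below, fits with an array left out or with only the compared groups were made without the block. Calls lost in them are those of the unpaired model. The limma call was lost without light wounded replicate 1 (adjusted p = 0.0761), light wounded replicate 2 (0.0706), light intact replicate 2 (0.0748) or light intact replicate 3 (0.0529). It was also lost when only these 6 arrays were fitted (0.0521), and over all alternatives the adjusted p ran from 0.00492 to 0.0761.

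Among the 12 clearly measured genes, CYP71B26 (AT3G26290) had the next largest difference in size. It read 8.95, 9.13 and 8.28 in wounded rosettes in the light, against 10.74, 11.17 and 9.47 in intact rosettes in the light. The groups did not overlap, and wounded arrays were lower in every experiment, by differences of -1.79, -2.04 and -1.19. The change was -1.68 ± 0.58 (SE), with a limma adjusted p of 0.135 without the block and 0.0018 with it. Experiment 3 was the lowest of its group for this gene in all 4 groups, and the SE of the same change was 0.16 with the block.

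The neighbouring genes CYP71B28 and CYP71B29 on chromosome 1 both read lower after wounding in the light. CYP71B28 (AT1G13090) read 7.84, 8.14 and 7.58 in wounded rosettes in the light, against 8.48, 9.52 and 8.75 in intact rosettes in the light. CYP71B29 (AT1G13100) read 4.12, 5.17 and 4.39 in wounded rosettes in the light, against 5.26, 6.03 and 5.96 in intact rosettes in the light. For both genes no wounded array reached an intact one. The change of CYP71B28 was -1.06 ± 0.29 (SE), with a limma adjusted p of 0.0568, or 0.0093 with the block. That of CYP71B29 was -1.19 ± 0.35 (SE), with a limma adjusted p of 0.0802, or 0.0033 with the block.

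CYP71B34 (AT3G26300) and CYP71B6 (AT2G24180) had smaller differences of the same sign. CYP71B34 read 7.54, 7.69 and 7.74 in wounded rosettes in the light, against 8.05, 8.72 and 8.23 in intact rosettes in the light. CYP71B6, whose enzyme turns indole acetonitrile, a tryptophan product, into indole carbaldehyde and carboxylic acid, read 8.88, 9.19 and 9.49 in wounded rosettes in the light, against 9.62, 9.83 and 9.83 in intact rosettes in the light. Neither gene's groups overlapped. The changes were -0.68 ± 0.21 (SE; limma adjusted p = 0.0975, or 0.0090 with the block) for CYP71B34 and -0.57 ± 0.17 (SE; 0.0754, or 0.0086 with the block) for CYP71B6.

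Of the remaining CYP71B genes, CYP71B23, CYP71B24 and CYP71B35 separated wounded from intact arrays in the light without a call in either model. CYP71B35 (AT3G26310) read 6.51, 6.59 and 6.56 in wounded rosettes in the light, against 6.79, 7.73 and 7.38 in intact ones, a change of -0.75 ± 0.29 (SE). CYP71B24 (AT3G26230) read 7.49, 7.29 and 7.48 in wounded rosettes in the light, against 8.50, 8.49 and 8.13 in intact ones, a change of -0.95 ± 0.32 (SE). CYP71B23 (AT3G26210) read 9.10, 9.13 and 8.98 in wounded rosettes in the light, against 10.14, 9.75 and 9.61 in intact ones, a change of -0.77 ± 0.36 (SE). These 3 genes had limma adjusted p of 0.178, 0.123 and 0.301 in that order, or 0.147, 0.0813 and 0.175 with the block. CYP71B5 (AT3G53280) overlapped, with 7.05, 7.21 and 7.29 in wounded rosettes in the light against 7.06, 7.93 and 7.49 in intact ones.

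In the dark, 10 of the 12 clearly measured genes read lower on average in wounded rosettes, the exceptions being CYP71B5 and CYP84A4, but limma called 0 P450 genes in either direction. The sign was unsettled for CYP71B5, at 0.05 ± 0.27, and CYP71B22, at -0.12 ± 0.94 (SE), both of which switched it when single arrays were left out. The median difference of the 12 was -0.43, against -0.08 for all 12307 bright probe sets, of which 63.2% were negative. limma called 1.05% of all probe sets lower and 2.54% higher after wounding in the dark. At an unadjusted p under 0.05 the P450 counts were 4 lower and 0 higher. With the block 2 genes were called lower, CYP71B26 and CYP71B29, and 0 higher, where 2.98% of all probe sets were lower and 4.01% higher.

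CYP71B26 read 6.34, 7.09 and 5.35 in wounded rosettes in the dark, against 7.80, 8.29 and 6.87 in intact rosettes in the dark. The groups overlapped across experiments, but the wounded array was lower in each experiment, by differences of -1.45, -1.21 and -1.51. Its change was -1.39 ± 0.58 (SE), with a limma adjusted p of 0.338, or 0.0071 with the block. With the 25S ribosomal RNA covariate, the signal of which was highest in intact rosettes in the dark, it was -0.68 (adjusted p = 0.917). CYP71B29 read 5.08, 6.03 and 5.60 in wounded rosettes in the dark, against 6.25, 6.83 and 6.90 in intact rosettes in the dark. Its groups did not overlap, and the change was -1.09 ± 0.35 (SE), with a limma adjusted p of 0.172, or 0.0099 with the block.

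CYP71B36 read 4.33, 4.93 and 5.43 in wounded rosettes in the dark, against 6.16, 5.47 and 6.39 in intact rosettes in the dark, with a change of -1.11 ± 0.37 (SE). CYP71B35 read 5.39, 4.93 and 5.81 in wounded rosettes in the dark, against 6.52, 5.90 and 6.50 in intact rosettes in the dark, with a change of -0.93 ± 0.29 (SE). Neither gene's groups overlapped, and neither passed, with limma adjusted p of 0.196 for CYP71B36 (0.0911 with the block) and 0.147 for CYP71B35 (0.124 with the block). The other clearly measured genes had changes between -0.47, in CYP71B34, and 0.34, in CYP84A4. None of these passed with or without the block.

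Light against dark gave the largest change of any P450 gene, in CYP71B26. No group was cut before the light or dark period, so a level raised by light and one lowered by darkness cannot be told apart. In intact rosettes limma called 1 P450 gene higher in the light, CYP71B26, and 0 lower. It called 6.28% of all probe sets higher and 5.66% lower. At an unadjusted p under 0.05 the P450 counts were 4 higher and 1 lower. With the block 4 genes were called higher, CYP71B26, CYP71B28, CYP71B34 and CYP78A9, and 2 lower, CYP71B22 and CYP71B29, where 13.0% of all probe sets were higher and 9.2% lower. Of the 12 clearly measured genes 7 were higher and 5 lower in the light, with a median change of 0.18, against 0.07 for all 12307 bright probe sets.

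CYP71B26 read 10.74, 11.17 and 9.47 in intact rosettes in the light, against 7.80, 8.29 and 6.87 in intact rosettes in the dark. Every light array lay above every dark one, and the difference was alike in the 3 experiments, at 2.94, 2.88 and 2.61. The change was 2.81 ± 0.58 (SE; 95% interval 1.50 to 4.12), a 7.01-fold higher level in the light, with a limma adjusted p of 0.0152, or 0.0002 with the block. It had rank 38 of 22746 from the highest. The limma call was lost without light intact replicate 1 (adjusted p = 0.0528) or light intact replicate 2 (0.0534), and when only these 6 arrays were fitted (0.0682). With the 25S ribosomal RNA signal as a covariate the change was 3.63 with an adjusted p of 0.0971. Over all alternatives the adjusted p ran from 4.7e-05 to 0.0971.

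CYP71B28 and CYP71B29, adjacent genes on chromosome 1, differed in opposite directions between light and dark in intact rosettes. CYP71B28 read 8.48, 9.52 and 8.75 in intact rosettes in the light, against 7.86, 8.42 and 8.35 in intact rosettes in the dark. CYP71B29 read 5.26, 6.03 and 5.96 in intact rosettes in the light, against 6.25, 6.83 and 6.90 in intact rosettes in the dark. Neither gene's groups overlapped. The change of CYP71B28 was 0.71 ± 0.29 (SE), with a limma adjusted p of 0.162, or 0.0303 with the block, and that of CYP71B29 was -0.91 ± 0.35 (SE), with 0.145, or 0.0052 with the block. The difference between the 2 genes was not tested.

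CYP71B22 (AT3G26200) varied widely between experiments. It read 5.63, 8.45 and 8.44 in intact rosettes in the light, against 7.82, 10.06 and 9.62 in intact rosettes in the dark. Experiment 1 was the lowest in all 4 groups and made the groups overlap, but the light array was lower in each experiment, by differences of -2.18, -1.61 and -1.19. The change was -1.66 ± 0.94 (SE), with a limma adjusted p of 0.333, or 0.0062 with the block and an SE of 0.28. It was -0.72 without light intact replicate 1 and -2.34 without dark intact replicate 1, with adjusted p of 0.617 and 0.193. CYP71B34 read 8.05, 8.72 and 8.23 in intact rosettes in the light, against 7.79, 8.22 and 7.81 in intact rosettes in the dark. The groups overlapped, and the change was 0.39 ± 0.21 (SE), with a limma adjusted p of 0.309, or 0.0487 with the block.

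CYP71B35 read 6.79, 7.73 and 7.38 in intact rosettes in the light, against 6.52, 5.90 and 6.50 in intact rosettes in the dark, a change of 0.99 ± 0.29 (SE). CYP71B36 read 6.46, 7.28 and 6.78 in intact rosettes in the light, against 6.16, 5.47 and 6.39 in intact rosettes in the dark, a change of 0.84 ± 0.37 (SE). Both genes separated the groups, with all light arrays above all dark ones, but neither passed in limma: the adjusted p was 0.0560 for CYP71B35 (0.0514 with the block) and 0.208 for CYP71B36 (0.107 with the block). In both, experiment 2 showed the largest difference.

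In wounded rosettes limma called 2 P450 genes higher in the light, CYP71B26 and CYP71B35, and 0 lower, where 2.3% of all probe sets were higher and 3.64% lower. At an unadjusted p under 0.05 the P450 counts were 2 higher and 3 lower. With the block the same 2 genes were called higher, and CYP71B22 and CYP71B29 lower, where 7.29% of all probe sets were higher and 7.78% lower. The median change of the 12 clearly measured genes was -0.06, against 0.01 for all 12307 bright probe sets. The 2 comparisons of wounding share no arrays with each other, and the 2 comparisons of light share none either, but each light comparison uses 3 arrays of each wound comparison.

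CYP71B26 read 8.95, 9.13 and 8.28 in wounded rosettes in the light, against 6.34, 7.09 and 5.35 in wounded rosettes in the dark. The groups lay well apart, and the change was 2.53 ± 0.58 (SE; 95% interval 1.21 to 3.84), a 5.76-fold higher level in the light, with a limma adjusted p of 0.0371, or 0.0004 with the block. It had rank 25 of 22746 from the highest. The call was lost without light wounded replicate 1 (adjusted p = 0.123), 2 (0.117) or 3 (0.0624), light intact replicate 1 (0.0555), dark wounded replicate 1 (0.0734) or 3 (0.115), or dark intact replicate 1 (0.0537). It was also lost when only these 6 arrays were fitted (0.0814), and the adjusted p ran from 0.000127 to 0.123 over all alternatives. Across the 4 groups the means were 8.79 ± 0.45, 10.46 ± 0.88, 6.26 ± 0.87 and 7.65 ± 0.72 (SD, n = 3 each) in wounded and intact rosettes in the light and wounded and intact rosettes in the dark, so both light groups stood above both dark groups.

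CYP71B35 read 6.51, 6.59 and 6.56 in wounded rosettes in the light, against 5.39, 4.93 and 5.81 in wounded rosettes in the dark. The light arrays were nearly equal and all above the dark ones. The change was 1.17 ± 0.29 (SE; 95% interval 0.53 to 1.82), a 2.25-fold higher level in the light, with a limma adjusted p of 0.0467, or 0.0382 with the block. The call was lost without light wounded replicate 1 (adjusted p = 0.126), 2 (0.125) or 3 (0.116), light intact replicate 3 (0.0700), dark wounded replicate 1 (0.0902) or 2 (0.156), or dark intact replicate 1 (0.0591) or 3 (0.0614). It was also lost when each array was centred on its median (0.0538), with the 25S ribosomal RNA covariate (0.0729) and when only these 6 arrays were fitted (0.0777), over a range of 0.0177 to 0.156.

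CYP71B22 read 6.70, 8.62 and 8.46 in wounded rosettes in the light, against 8.12, 9.84 and 9.19 in wounded rosettes in the dark. The groups overlapped because experiment 1 was low in both, and the change was -1.12 ± 0.94 (SE), with a limma adjusted p of 0.703, or 0.0376 with the block. Without light wounded replicate 1 it was -0.51. CYP71B29 read 4.12, 5.17 and 4.39 in wounded rosettes in the light, against 5.08, 6.03 and 5.60 in wounded rosettes in the dark. One light array lay above the lowest dark array, and the change was -1.01 ± 0.35 (SE), with 0.154, or 0.0055 with the block. For CYP71B29 the 2 differences therefore stood side by side at -0.91 in intact and -1.01 in wounded rosettes.

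CYP71B23 read 9.10, 9.13 and 8.98 in wounded rosettes in the light, against 9.70, 10.80 and 9.88 in wounded rosettes in the dark, a change of -1.06 ± 0.36 (SE). CYP71B24 read 7.49, 7.29 and 7.48 in wounded rosettes in the light, against 7.88, 8.65 and 8.63 in wounded rosettes in the dark, a change of -0.96 ± 0.32 (SE). All light arrays lay below all dark ones for both genes, without a call: the limma adjusted p was 0.146 for CYP71B23 (0.0748 with the block) and 0.133 for CYP71B24 (0.0786 with the block). In intact rosettes the same 2 genes had light differences of 0.32 and 0.43 in experiment 1 and negative ones in experiments 2 and 3. CYP71B5 had light differences of -0.07 in intact and -0.43 in wounded rosettes, and CYP71B6 0.19 and -0.09, and neither gene passed in either comparison.

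**Figure D2:**
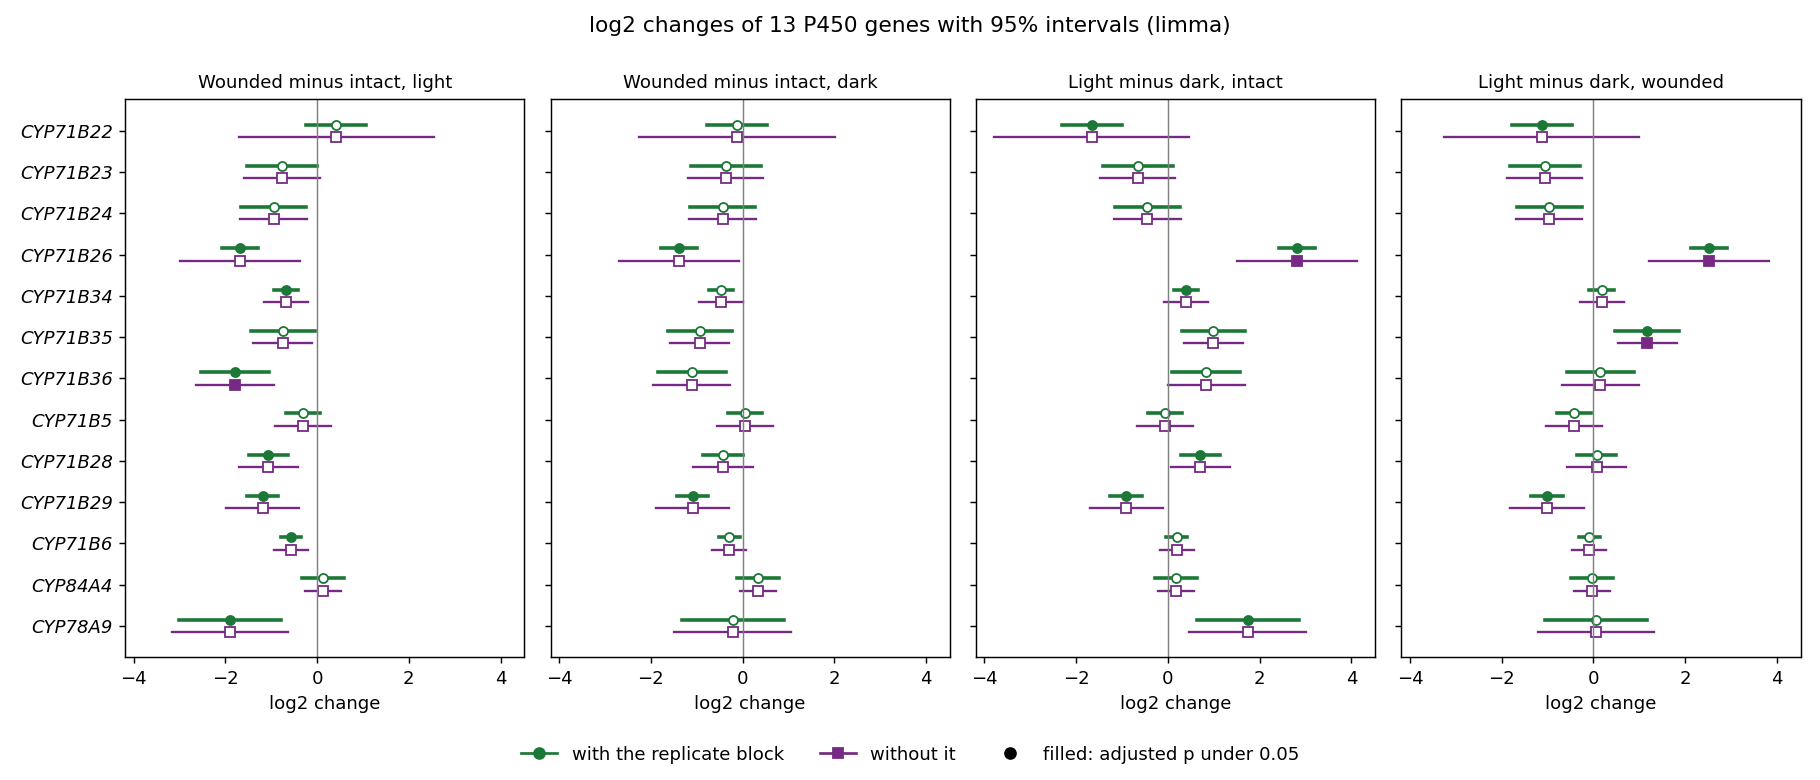
Log2 changes of the 13 P450 genes that reached a log2 value of 4 on any array, with 95% intervals from limma, in 4 panels for wounding in the light, wounding in the dark, light in intact and light in wounded rosettes. Circles are the model with the replicate block and squares the model without it, and filled symbols mark an adjusted p under 0.05; intervals of CYP71B22, CYP71B26 and CYP71B29 are narrower with the block.

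Of the 22 P450 genes, 11 lie in 1 stretch of chromosome 3 in the gene order of TAIR10.1, which holds 18 CYP71B genes. From one end they are CYP71B16, CYP71B21, CYP71B22, CYP71B23, CYP71B24, CYP71B25, CYP71B26, CYP71B34, CYP71B35, CYP71B36 and CYP71B37, and 7 of them were clearly measured. CYP71B22 and CYP71B23 are direct neighbours, and CYP71B34 to CYP71B37 follow one another with 0 other protein-coding genes between them. Among the 7 clearly measured genes the sign of the light difference changed once along this stretch, a pattern noticed after the values were seen. A probe set shared by CYP71B19 and CYP71B20, which lie between CYP71B16 and CYP71B21, is not among these 7. Its light changes were 0.11 ± 0.28 in intact and -0.24 ± 0.28 in wounded rosettes (SE), without a call. In intact rosettes its sign was thus opposite to that of CYP71B22, which comes after it. CYP71B22, CYP71B23 and CYP71B24 had lower means in the light in both comparisons, while CYP71B26, CYP71B34, CYP71B35 and CYP71B36 had higher means in the light in both, though the sign of CYP71B36 in wounded rosettes turned to -0.13 without dark wounded replicate 1 and to -0.12 without light wounded replicate 3. In intact rosettes the light changes, in gene order, were -1.66, -0.66, -0.45, 2.81, 0.39, 0.99 and 0.84, of which the limma call held for CYP71B26 alone, and with the block for CYP71B22, CYP71B26 and CYP71B34. Wounding gave lower means in the light and in the dark for 6 of the 7, the exception being CYP71B22, with changes of 0.42 ± 0.94 in the light and -0.12 ± 0.94 in the dark (SE).

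For the adjacent genes CYP71B34, CYP71B35 and CYP71B36, the changes for wounding in the light stood side by side at -0.68 ± 0.21, -0.75 ± 0.29 and -1.79 ± 0.37 (SE). For light in wounded rosettes they were 0.18 ± 0.21, 1.17 ± 0.29 and 0.15 ± 0.37 (SE), and differences between the genes were not tested. The dim genes of the stretch, CYP71B16, CYP71B21, CYP71B25 and CYP71B37, stayed below 4 on every array. Probe sets of such near-identical copies can share signal. All 22 carry the plain suffix that the array maker gave to probe sets matched to a single transcript at design, and how far each also binds other copies was not tested.

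**Figure D3:**
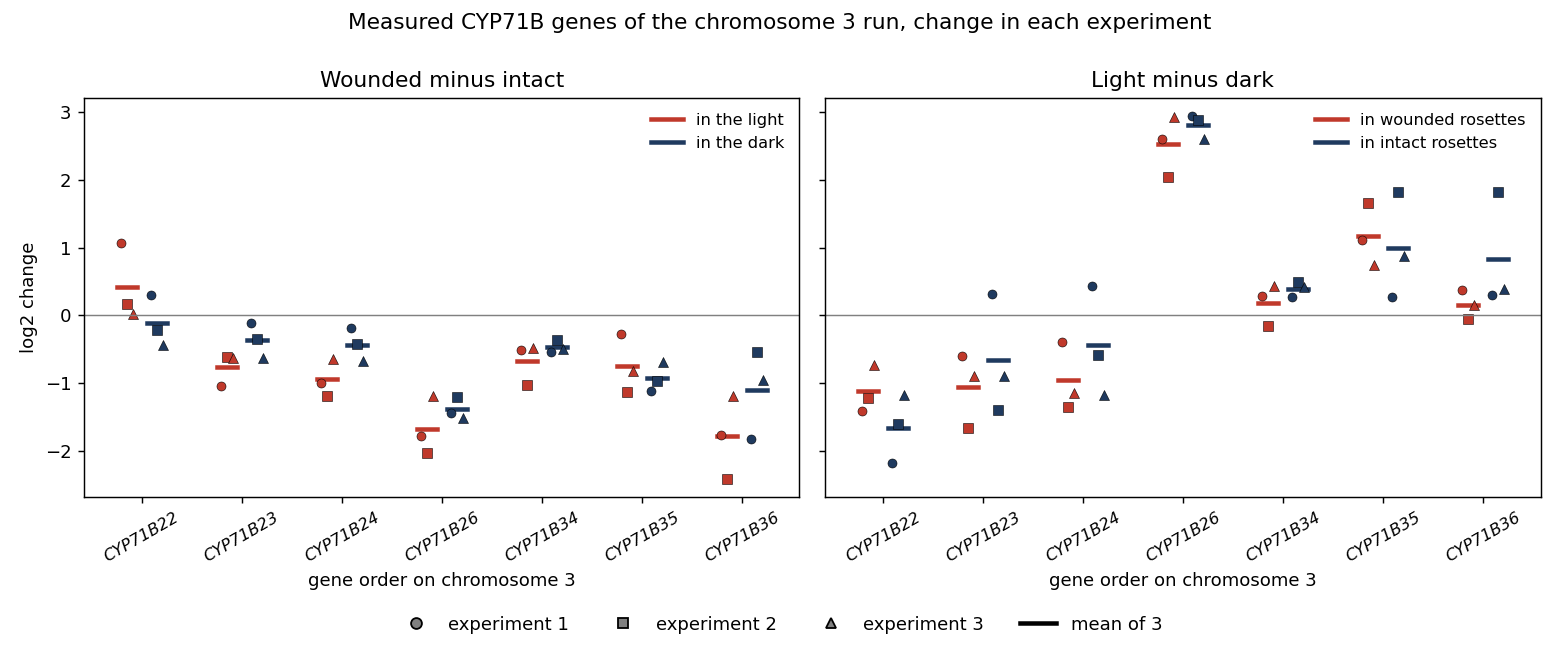
Log2 changes of the 7 clearly measured CYP71B genes of the chromosome 3 stretch, in gene order, for wounded minus intact (left) and light minus dark (right). Symbols are single experiments and bars their means; in the right panel CYP71B22, CYP71B23 and CYP71B24 have bars below 0 and the 4 genes after them bars above 0, the highest at 2.81 for CYP71B26.

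By role, few of the 22 genes were in the pathway lists used here. Of 106 P450 genes listed in 13 groups by pathway, 6 were among the 22, and 16 of the 22 genes were in no group. These counts depend on the lists and on which P450 genes the probe set annotation named. Among P450s of indole and glucosinolate defence compounds, CYP71B6 is described above, and CYP79A2 (AT5G05260), which starts benzylglucosinolate synthesis from phenylalanine, read between 2.08 and 2.17 on all arrays. CYP84A4 (AT5G04330), an enzyme of arabidopyrone synthesis, read 4.68, 4.88 and 4.51 in wounded rosettes in the light, against 4.89, 4.33 and 4.44 in intact rosettes in the light. It read 4.53, 4.58 and 5.04 in wounded rosettes in the dark, against 4.40, 4.44 and 4.30 in intact rosettes in the dark. Its dark groups did not overlap and its light groups did, and with 0.14 ± 0.17 in the light and 0.34 ± 0.17 in the dark (SE) neither wound change passed (limma adjusted p = 0.630 and 0.504). CYP71B31 (AT3G53300), known for linalool oxidation in flowers, and CYP51G2 (AT2G17330), a relative of the sterol demethylase gene, stayed below 2.51 and 2.25.

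CYP78A9 (AT3G61880), of a family that promotes the growth of fruits and seeds, read above 4 in 2 intact rosette arrays in the light. It read 2.63 on all 3 arrays of wounded rosettes in the light, against 4.11, 6.01 and 3.45 in intact rosettes in the light. It read 2.59, 2.59 and 2.53 in wounded rosettes in the dark, against 2.63, 3.44 and 2.29 in intact rosettes in the dark. The light intact arrays all lay above those of the other 3 groups but spread widely, and no fold is given because the other groups stayed below 4. Its limma adjusted p was 0.0805 for wounding in the light (0.0380 with the block) and 0.0837 for light in intact rosettes (0.0378 with the block). These changes, -1.90 ± 0.56 and 1.74 ± 0.56 (SE), were -1.16 and 1.00 without light intact replicate 2, and the second was 2.51 (adjusted p = 0.222) with the 25S ribosomal RNA covariate.

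Whether light altered the wound response was tested as the difference between the wound changes of lit and dark rosettes, lit minus dark. limma called 0 of the 22 P450 genes, and 0 at an unadjusted p under 0.05. With the block it also called 0, and 2, CYP71B28 and CYP78A9, had an unadjusted p under 0.05. Few probe sets of any kind were called, 0.0132% without the block and 0.00879% with it. The interaction was -0.68 ± 0.53 for CYP71B36, -0.28 ± 0.82 for CYP71B26, -0.64 ± 0.40 for CYP71B28 and -0.10 ± 0.50 for CYP71B29 (SE), with limma adjusted p of 0.819, 0.935, 0.819 and 0.966 in that order. For CYP78A9 it was -1.68 ± 0.79 (SE; 0.819). The call of CYP71B36 in the light and its lack in the dark therefore do not show that its wound changes differed. Of the 12 clearly measured genes 10 had a negative interaction, against 61.2% of all 12307 bright probe sets.

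The genes that work beside P450 enzymes were followed through 11 lists of 142 genes. Of these, 19 had a probe set annotated to that gene alone and count as measured. Of the 19, the jasmonate gene JOX1 and the receptor gene BRL1 read at most 2.30 and 2.29. Both stayed below the mark of a clear signal on every array but are kept in the counts. In the jasmonate pathway, the wound hormone route, 3 of 6 measured genes rose after wounding in the light and 0 fell. JOX4 (AT2G38240) and JOX2 (AT5G05600), oxidases that inactivate jasmonate, rose by 3.10 ± 0.38 and 2.31 ± 0.32, and OPCL1, which activates jasmonate precursors, by 2.08 ± 0.52 (SE; limma adjusted p = 0.0019, 0.0030 and 0.0414). In the dark JOX4 and JOX2 rose by 2.05 ± 0.38 and 1.81 ± 0.32 (0.0216 and 0.0177), and OPCL1 stood at 1.83 ± 0.52 (0.114, or 0.0175 with the block). JMT, which methylates jasmonate, was higher in the light in wounded rosettes with the block (limma adjusted p = 0.0328, or 0.125 without it). On the same arrays 0 of the 22 P450 genes were called higher after wounding in the light or in the dark, where 4.31% and 2.54% of all probe sets were. With so few genes, this 0 does not set the P450 genes apart from all probe sets. Of 9 P450 genes listed for jasmonate and oxylipins, 0 were among the 22. JMT was not called for wounding.

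Of all probe sets, limma called 6.28% higher in the light in intact and 2.3% in wounded rosettes, or 13.0% and 7.29% with the block. The shares for the other comparisons are given above, and counts in these short lists were not tested against them. In the phenylpropanoid and flavonoid pathway 3 of 4 measured genes, HCT among them, were higher in the light in both comparisons with the block. Without the block 2 of the 4 were. They were the flavonol glycosyltransferase genes UGT78D1, at 1.97 ± 0.29 in intact and 1.51 ± 0.29 in wounded rosettes, and UGT78D2, at 1.52 ± 0.30 and 1.25 ± 0.30 (SE; limma adjusted p of 0.0035 and 0.0189, and of 0.0116 and 0.0422). In the glucosinolate and camalexin pathway all 3 measured genes, BCAT4 among them, were higher in lit than in dark intact rosettes with the block. Without the block 1 of the 3 was. It was UGT74B1, which adds glucose in glucosinolate synthesis, at 1.37 ± 0.28 (SE; 0.0156). With the block, UGT74B1 and IGPS (AT2G04400), of tryptophan synthesis, were also higher after wounding in the light and in the dark and in lit against dark wounded rosettes, where 0 of 3 passed without it. The wound changes were 0.35 ± 0.28 and 0.88 ± 0.28 for UGT74B1 and 0.88 ± 0.28 and 0.85 ± 0.28 for IGPS, in the light and in the dark (SE; limma adjusted p with the block of 0.0374, 0.0040, 0.0128 and 0.0270). For light in wounded rosettes both stood 0.85 and 0.88 higher (0.0017 and 0.0137 with the block). In the gibberellin pathway 1 of 3, the receptor gene GID1B, rose after wounding by 0.81 ± 0.19 in the light and 0.97 ± 0.19 in the dark (SE; 0.0291 and 0.0251). With the block, the receptor gene GID1C was lower in lit than in dark intact rosettes (limma adjusted p = 0.0452) and GID1B in lit than in dark wounded ones (0.0331). In the abscisate pathway the 1 measured gene, UGT71B6, which adds glucose to abscisate, was lower in lit than in dark intact rosettes, with a change of -2.18 ± 0.51 (SE; 0.0259). In wounded rosettes its change was -1.96 ± 0.51 (SE; 0.0617, or 0.0103 with the block). The brassinosteroid receptor gene BRL1 and the carotenoid cyclase gene LCYB had no call, though LCYB was lower after wounding in the light with the block (limma adjusted p = 0.0113). The reductases and cytochrome b5 proteins that pass electrons to P450 enzymes, and the cuticle, sterol and cytokinin lists, were not analysed here.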

How the data were processed

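The arrays measured total RNA from rosettes, 12 arrays in 4 groups of 3, grouped by their titles; 1 array, dark wounded replicate 2, has only an abbreviation as its treatment text. The authors deposited log2 values, made with GCRMA per the submitters' processing notes. GCRMA adjusts for background and normalizes the arrays together. Levels of different probe sets are not read here as comparable amounts of transcript. The table has 22810 probe sets, of which 64 controls were left out. Its annotation gave 1 gene to 13513 of the rest, several to 503 and none to 8730; no gene of the report is named from a probe set of several or none, and 2 shared probe sets are given apart under the names of both genes. It has no detection calls, so every gene was tested, and a log2 value of 4 served as the mark of a clear signal.

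limma 3.58.1 in R 4.3.3 fitted 1 mean per group over all 12 arrays and 22746 probe sets, with empirical Bayes moderation (residual df 8, prior df 0.966) and two-sided p-values adjusted by Benjamini-Hochberg over all probe sets of a comparison. The alternatives were the replicate block, a brightness filter, median centring, both block and centring, a variance trend with a robust prior, a 25S ribosomal RNA covariate, the compared groups alone and leaving out each array. Only the block, alone or with centring, paired the arrays by experiment. Per the series description, the replicate numbers mark 3 independent experiments with all 4 treatments in each. After group means were removed, arrays of equal number (18 pairs) had r of 0.30 to 0.74 across probe sets. The other 36 pairs had r of -0.46 to -0.07. Once group means are removed, positive r in the first set pulls the second below 0, so the second range is no separate support. From the description and the first range, the numbers were taken as pairing the arrays. The blocked value is given where it changes a call or a count. The p-values measure the spread between pools of plants of these experiments. On simulated data for wounding in the light (22746 probe sets), the model without the block called 43% of changes of 1 and 88% of changes of 2 on the log2 scale, and the one with it 34% and 80%. The simulated noise was independent for each array, with no shift shared by an experiment. The simulation therefore cannot tell which model is the more sensitive on the real arrays.

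The genes and lists were chosen with earlier results of these data known. The rule for named genes took the called P450 genes whose arrays do not overlap and, from each role list, the called members or else the 2 brightest; the other P450 genes were named after their values were seen, so that every gene is accounted for. Partner genes are the called ones of each list, up to 4. Loci and gene order come from RefSeq TAIR10.1, to which all 22 genes matched by gene identifier. No sequences were used here.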

Additional observations from a re-analysis of the deposited data

How the results depend on the processing

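The 57 log2 changes reported for 13 genes were recomputed 1073 times, of which 969 kept their direction and their side of the threshold, 47 passed only under the alternative, 28 were lost and 29 changed sign. With the replicate block, which paired the arrays by experiment, the counts of P450 genes were 7 lower for wounding in the light, 2 lower for wounding in the dark, 4 higher and 2 lower for light in intact rosettes, and 2 lower for light in wounded rosettes. With the replicate block and median centring together they were 7, 3, 3, 2 and 3 in the same order. The brightness filter gave 3 lower for wounding in the light and 2 higher for light in intact rosettes, among the 12 genes it kept, and the variance trend with a robust prior gave 2 and 2. Light in intact rosettes gave 0 higher with the 25S ribosomal RNA covariate and 0 when only the compared groups were fitted. Light in wounded rosettes gave 1 higher with median centring, 1 with the covariate and 0 with the compared groups alone.

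Leaving out 1 array at a time gave 0 to 2 lower genes for wounding in the light: 0 without light wounded replicate 1 or light intact replicate 2, and 2 without light wounded replicate 3, light intact replicate 1 or dark intact replicate 1. It gave 0 to 2 higher genes for light in intact rosettes: 0 without light intact replicate 2, and 2 without light intact replicate 3 or either of replicates 2 and 3 of wounded rosettes in the dark. It gave 0 to 2 higher genes for light in wounded rosettes: 0 without any light wounded replicate, dark wounded replicate 1 or dark intact replicate 1, and 1 without light intact replicate 1 or 3, dark wounded replicate 2 or 3, or dark intact replicate 3. It gave 0 to 1 lower genes there, the 1 without dark intact replicate 1. The counts of 0 higher for wounding and of 0 for the interaction were met under every alternative run.

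The changes that switched sign were within 1 SE of 0, except the interaction of CYP71B36 at -0.68 ± 0.53 (SE). With the 25S ribosomal RNA covariate, wounding in the dark gave -0.0221 for CYP71B5, 0.19 for CYP71B22 and 0.46 for CYP78A9, and the interaction of CYP71B36 was 0.059. Over arrays left out, wounding in the dark ranged from -0.79 to 0.35 for CYP71B22, -0.21 to 0.24 for CYP71B5 and -0.46 to 0.11 for CYP78A9, and wounding in the light from -0.52 to 1.03 for CYP71B22. Light in wounded rosettes ranged from -0.0706 to 0.23 for CYP71B28, -0.13 to 0.42 for CYP71B36, -0.24 to 0.0639 for CYP71B6 and -0.12 to 0.13 for CYP84A4, and light in intact rosettes from -0.33 to 0.15 for CYP71B5. The interaction ranged from -0.78 to 0.13 for CYP71B26 and -0.40 to 0.13 for CYP71B29. The cause of these shifts was not tested. Averaging the probe sets of a gene gave no separate value, since each gene has 1. The number of arrays limits the precision for all 22 genes. Signal near background also limits the 9 dimmest and CYP78A9, which reached 4 on only 2 arrays, also where the block called it.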

Other observations

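A few probe sets whose annotation held a P450 symbol were outside the set, because it did not name a single gene of the required form. The 8730 of 22746 probe sets with no named gene could not be searched for further P450 genes. The probe set shared by CYP71B19 and CYP71B20, 2 genes of the same stretch of chromosome 3, averaged 9.52 ± 0.14 in wounded rosettes in the light and 10.06 ± 0.27 in intact rosettes in the light. In the dark it averaged 9.76 ± 0.45 in wounded rosettes and 9.95 ± 0.46 in intact rosettes (SD, n = 3 each). The wound change in the light was -0.54 ± 0.28 (SE), with a limma adjusted p of 0.349, or 0.0939 with the block, and which of the 2 genes it reads cannot be told apart. The probe sets of CYP71B30P, of CYP718 and of CYP79C2 with AT1G58265 averaged below 2.25 in every group.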
